A study of Mus musculus with 8 samples.

Results

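In the aorta-gonad-mesonephros region of the mouse embryo, wild-type (WT) cells named Myeloid were compared with wild-type cells named erythro-myeloid progenitors (EMP). Members were chosen by the deposited annotation alone: 1052 Myeloid and 390 EMP cells, out of 8423 WT cells and 15168 cells in all. The comparison asks which genes part myeloid cells from the progenitors that can form them. The study used CITE-seq, a single-cell assay. It reads the RNA of each cell as unique molecular identifiers (UMIs), with 1 UMI for 1 captured molecule, and a few proteins of its surface through barcoded antibodies (tags). Cells positive for CD31, a surface protein of endothelium that many early blood cells also carry, were sorted from embryos at embryonic day 10.5. Each library was a pool of 2 to 5 embryos. The WT libraries, WT 1 to 5, came from strain C57BL/6. The 3 Mff_Cre libraries used beside them are labelled as strain Meis1-flox/VE-Cre and genotype Meis1-knockout. In those embryos an exon of Meis1 is floxed and Cre is driven by the VE-cadherin promoter, so deletion is expected in endothelium and in the blood cells that descend from it. All libraries shared the age and the sort. Cell names in WT 5 start with Mf_ and those in WT 4 are bare barcodes, so both were placed in WT by the labels and the annotation alone. The count table has a row named CreERT2, which held 0 UMIs in the WT libraries and 34 in the Mff_Cre libraries.

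Erythro-myeloid progenitors arise in the yolk sac from hemogenic endothelium before blood stem cells form, and give rise to erythrocytes, megakaryocytes, mast cells, granulocytes and macrophages. The GATA factors and KLF1 drive the erythroid and megakaryocytic branches, while PU.1 (encoded by Spi1), the C/EBP factors and IRF8 drive the myeloid ones. Early macrophages of the embryo, among them the forebears of tissue macrophages such as microglia, depend on the receptor CSF1R and take up dying cells.

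Myeloid cells numbered 282, 355, 35, 178 and 202 in WT 1 to 5, and EMP cells 59, 79, 38, 103 and 111. Myeloid cells thus made up 18.3%, 23.3%, 5.38%, 6.85% and 9.56% of the cells of WT 1 to 5, a wide range, with exact Clopper-Pearson 95% intervals that reach from 3.77% in WT 3 to 25.5% in WT 2. EMP cells made up between 3.84% and 5.84%. The median UMI count of a cell was 25064 in Myeloid and 21434 in EMP cells of WT 5, and 42006 to 54523 in Myeloid and 47527 to 53132 in EMP cells of WT 1 to 4. WT 5 was the shallowest WT library in both types. A doublet caller marked 12 of the Myeloid and 5 of the EMP cells, and 7 of the 1442 cells shared a barcode with a cell of another library. Counts were summed over the cells of a type within each library and scaled to CPM, counts per 1000000 UMIs. For single genes, the UMIs were those of the genes that passed the filter on low counts, times a size factor (TMM) for the sum. Summed levels of gene lists are per 1000000 of all UMIs of the sum, without that factor.

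Markers were read beside the names at equal depth, with each cell thinned to 5000 UMIs. Thinning left out 1 WT Myeloid cell and no WT EMP cell. Arterial endothelial cells (aEC) of the same libraries served as the background. The authors drew and named the types from these same RNA counts, so the shares describe the names and do not test them. A Spi1 UMI was found in 80.4% ± 3.28 of Myeloid cells (SD over 5 libraries), in 57.2% ± 8.55 of EMP cells and in 0.65% of aEC. For Csf1r the shares were 55.5% ± 8.36, 4.50% ± 2.77 and 0.16%. The progenitor markers went the other way, with a Kit UMI in 4.65% ± 3.58 of Myeloid and 34.0% ± 6.12 of EMP cells, and a Myb UMI in 9.17% ± 5.00 and 53.9% ± 4.07. Of aEC, 16.7% held a Kit UMI and 0% a Myb UMI. The aEC share for Kit lay above that of Myeloid cells, so aEC could not serve as a background for Kit. Each of these 4 differences had the same sign in 5 of 5 libraries, where the exact sign-flip permutation test gives p = 0.0625, the smallest it can give. Without thinning, the shares were 99.1% and 91.5% for Spi1, 93.4% and 21.9% for Csf1r, 20.5% and 87.4% for Kit, and 39.1% and 94.4% for Myb, Myeloid first. CD34, a protein of endothelium and progenitors, did not mark EMP cells here: a Cd34 UMI was in 43.2% of Myeloid and 37.7% of EMP cells, against 96.2% of aEC, with 4 of 5 libraries higher in Myeloid cells (exact sign-flip permutation p = 0.125).

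Raw counts were tested with edgeR's quasi-likelihood test with the library as a block, and a gene was called at a Benjamini-Hochberg adjusted p under 0.1. Of 10267 genes tested, 6271 (61.1%) were called, 3292 higher (32.1% of those tested) and 2979 lower (29.0%) in Myeloid cells. A second test asked which genes differed by more than 2-fold, and it called 1009 (9.83%), 776 higher (7.56%) and 233 lower (2.27%). The authors drew both types by clustering these same RNA counts. Genes that part the types were thus called by construction, and the tests say how steadily a difference held over libraries, not that the types exist. In bulk sums, fewer cells holding an RNA and less of it per cell cannot be told apart. All 5 values of a type lay above all 5 of the other for 28.2% of the genes tested, 17.0% with Myeloid and 11.2% with EMP cells above, and statements below that groups did not overlap stand against those shares. The plot of gene lists gives every list member tested.

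**Figure D1:**
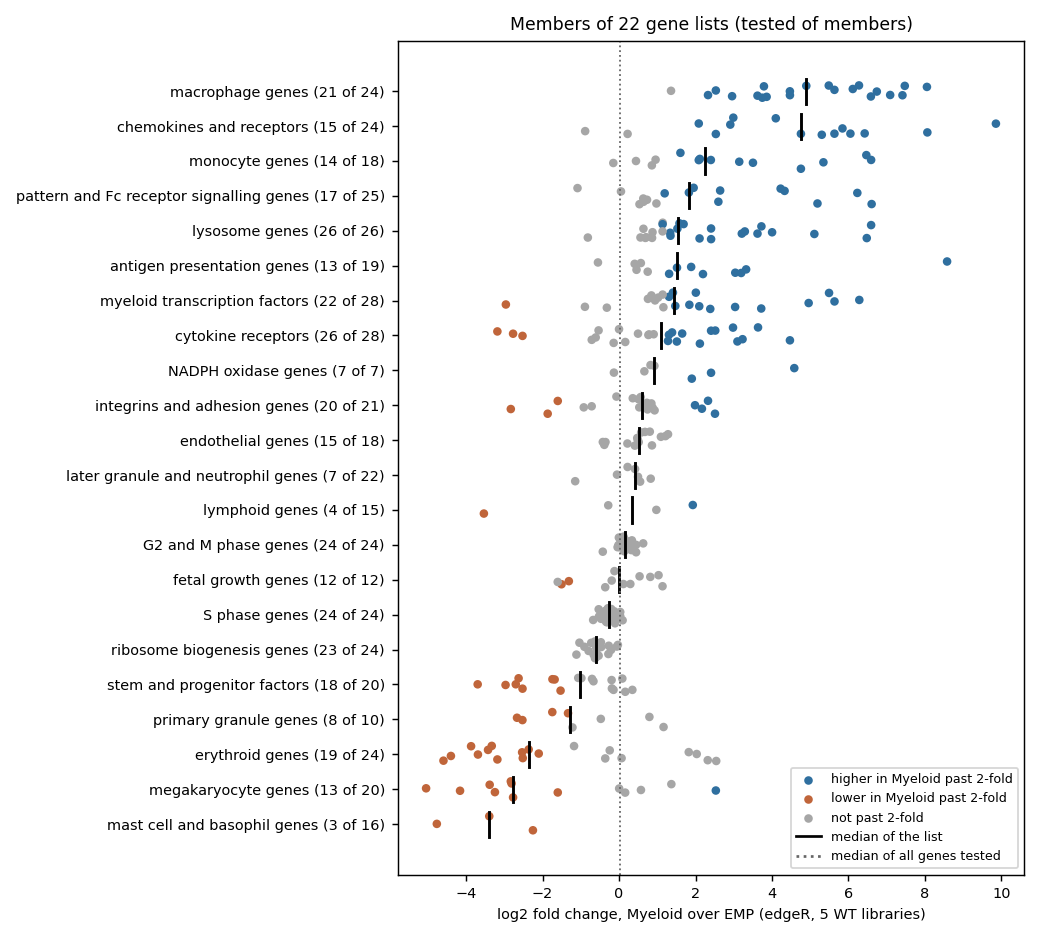
Log2 fold change of Myeloid over EMP (x axis, edgeR, 5 WT libraries) for the members of 22 gene lists (y axis, with the number tested of all members), 1 point a gene. Black bars mark list medians, the dotted line the median of all genes tested, and colour marks members past 2-fold. The macrophage list has the highest median, 4.90, and the mast cell, megakaryocyte and erythroid lists the lowest. The points of Ccl12 and Cd74, which had no count in EMP cells, depend on the count that the fit adds.

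Transcription factors of the progenitor state were lower in Myeloid cells. Gata2, needed for the upkeep of stem and progenitor cells, stood at 86.8, 110.0, 83.9, 97.1 and 81.1 CPM in EMP cells of WT 1 to 5 and at 10.3, 4.93, 0.59, 3.48 and 15.6 CPM in Myeloid cells. Here and below, values run from WT 1 to WT 5, with EMP first. All 5 EMP values lay above all 5 Myeloid values, and the log2 fold change was -3.70 (SE 0.31) (edgeR adjusted p 2.9e-06). Kit, the receptor for stem cell factor, stood at 79.9, 70.1, 95.7, 82.4 and 80.7 CPM in EMP and 12.1, 10.2, 21.2, 7.697 and 28.5 CPM in Myeloid cells, again without overlap (log2 fold change -2.53, SE 0.21, edgeR adjusted p 2.4e-06). Myb, a factor of definitive progenitors, fell by 2.70 on the log2 scale, and it was among the 10 largest falls by the naming rule. Of the 20 stem and progenitor factors, 18 could be tested. Of these, 13 were lower and 1, Fli1, was higher. The 8 members lower past 2-fold were Gata2, Zbtb16, Myb, Ikzf2, Kit, Meis1, Erg and Tal1. The median over the 18 was -1.03, against 0.015 over all genes tested.

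Some members of this list differed little or not detectably. Runx1, which is required for the emergence of definitive blood, stood at 152, 157, 179, 175 and 168 CPM in EMP and 155, 132, 160.0, 142 and 138 CPM in Myeloid cells. The groups overlapped, and the log2 fold change was only -0.20 (SE 0.06), though called (edgeR adjusted p 0.016). With cells thinned to 5000 UMIs it was not called, at -0.07 (edgeR adjusted p 0.65). Cd34 was not called, at 0.08 (SE 0.10), nor was Flt3, at 0.16 (SE 0.36). Lmo2, a partner of Tal1 and the GATA factors, was lower by less than 2-fold (-0.71, SE 0.13). Meis1, the gene deleted in the Mff_Cre embryos, stood at 72.97, 59.5, 57.4, 68.3 and 65.98 CPM in EMP and 18.6, 12.99, 24.1, 20.1 and 28.2 CPM in Myeloid cells of WT, a log2 fold change of -1.74 (SE 0.13) with no overlap.

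**Figure D2:**
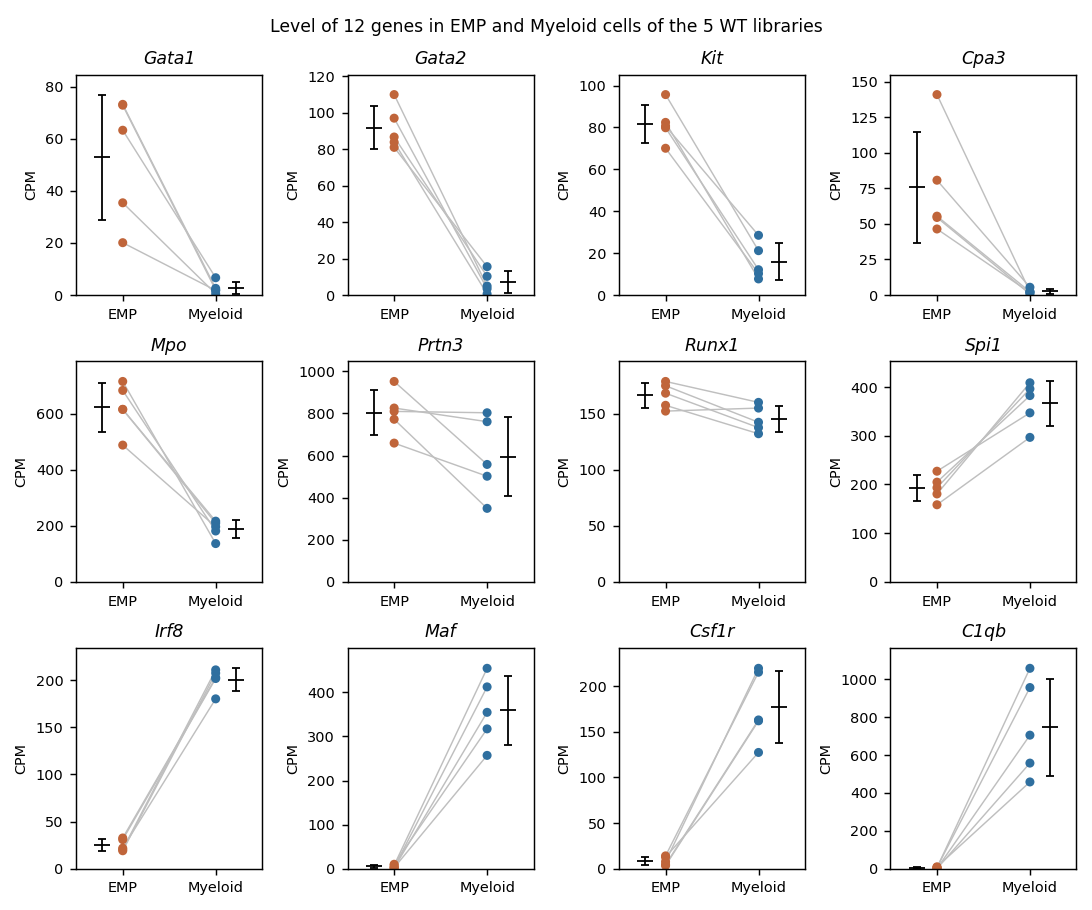
Level in CPM (y axis, from 0) of 12 genes in EMP and Myeloid cells (x axis) of the 5 WT libraries. Points joined by a line come from 1 library, and black bars give the mean and SD. Gata1, Gata2, Kit, Cpa3 and Mpo were lower in Myeloid cells in 5 of 5 libraries without overlap, Irf8, Maf, Csf1r, C1qb and Spi1 higher, while Runx1 and Prtn3 overlapped.

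The erythroid regulators were lower in Myeloid cells too. Gata1, the master factor of erythroid and megakaryocytic cells, stood at 72.97, 73.3, 20.1, 35.5 and 63.3 CPM in EMP and 1.900, 2.56, 1.76, 0.50 and 6.65 CPM in Myeloid cells. Every library fell and the groups did not overlap, with a log2 fold change of -4.60 (SE 0.27) (edgeR adjusted p 1.6e-07). Klf1, which turns on adult globin and other erythroid genes, stood at 44.2, 48.5, 1.96, 26.9 and 34.3 CPM in EMP and 1.14, 3.78, 0, 0.37 and 2.099 CPM in Myeloid cells. WT 3, which had the fewest Myeloid cells, was also low in EMP cells, at 1.96 CPM, so that the groups overlapped (log2 fold change -4.40, SE 0.26). Gfi1b, a repressor that acts with GATA1, fell by 3.69, Zfpm1, the GATA1 cofactor FOG-1, by 3.43, and Car2, a carbonic anhydrase of red cells, by 3.87 on the log2 scale. Car2 was the largest fall by the naming rule. The receptor for erythropoietin, Epor, fell by 3.19, except in WT 3, where EMP cells held 0.49 and Myeloid cells 0.59 CPM.

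The promoters of Klf1 and Gfi1b are shown because both genes are known to act with GATA1, which fell with them. Each is a window from 250 bases before to 50 after the transcription start, from RefSeq in build GRCm38.p6, 5′ to 3′ on the gene's strand. Capitals mark the GATA motif NGATAA on either strand, and neither window held GAGGAA or TTGCNNAA, so no motifs overlapped. Klf1 is at chr8:84901732-84902031 on the plus strand and Gfi1b at chr2:28621933-28622232 on the minus strand.
Klf1: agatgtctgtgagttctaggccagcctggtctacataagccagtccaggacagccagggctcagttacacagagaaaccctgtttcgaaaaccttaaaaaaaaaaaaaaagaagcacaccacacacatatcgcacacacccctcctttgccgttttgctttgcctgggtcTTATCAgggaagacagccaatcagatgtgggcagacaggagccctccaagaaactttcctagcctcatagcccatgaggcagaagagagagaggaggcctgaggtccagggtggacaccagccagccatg
Gfi1b: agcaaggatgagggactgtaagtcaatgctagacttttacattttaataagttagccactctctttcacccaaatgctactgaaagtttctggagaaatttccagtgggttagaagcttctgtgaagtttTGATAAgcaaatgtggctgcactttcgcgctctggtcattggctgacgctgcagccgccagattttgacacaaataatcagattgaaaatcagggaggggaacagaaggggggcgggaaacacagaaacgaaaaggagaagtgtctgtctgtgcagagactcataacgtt

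NGATAA was found in 36.1% of 36 promoters of list members lower past 2-fold, in 19.8% of 101 promoters of list members higher past 2-fold, in 25.6% of the 242 promoters of all genes lower past 2-fold, in 16.3% of the promoters of all genes tested and in 25.3% of all promoters in the table. The table matched 29 of 39 lower and 78 of 104 higher list members. A match of letters is a description and not a bound site.

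Of the 24 erythroid genes, 19 could be tested, 12 were lower and 4 higher in Myeloid cells, with 11 lower past 2-fold and a median of -2.37. The 11 became 6 without WT 2 and 6 with cells thinned to 5000 UMIs, and members higher past 2-fold went from 0 to 3 without WT 1, 1 without WT 2 and 2 without WT 5. The 4 that were higher, Hbb-y, Hba-x, Hba-a1 and Hba-a2, were embryonic and alpha globins. Hbb-y, the main beta-type globin of primitive red cells, stood at 22.5, 12.4, 0, 1114 and 24.8 CPM in Myeloid cells of WT 1 to 5 and at 23.2, 8.73, 3.44, 70.03 and 18.9 CPM in EMP cells. WT 4 stood far above the other Myeloid sums. The log2 fold change of 2.03 (SE 0.68) was called (edgeR adjusted p 0.026), but it was 0.19 without WT 4 (edgeR adjusted p 0.52) and 0.32 with DESeq2 (adjusted p 0.83). Hba-x, the zeta globin, moved likewise, from 2.32 (SE 0.68) to 0.18 without WT 4 (edgeR adjusted p 0.47). Hba-a1 gave no value without WT 4, and Hbb-bh1, another embryonic globin, went from -1.18, not called, to -2.84 (edgeR adjusted p 7.8e-06). Counting may split reads between near-identical globin copies, such as Hba-a1 and Hba-a2 or Hbb-bs and Hbb-bt, so single values of these are uncertain. Hemoglobin genes together took 2089 CPM of the Myeloid sum in WT 4 and 15.1 to 55.2 CPM in the other 4 libraries. Over the 17 other erythroid genes, the summed level was 90.9 to 165 CPM in Myeloid and 390 to 665 CPM in EMP cells, with WT 4 at 112 CPM in Myeloid cells. In aEC it was 225 to 419 CPM. What part red cell RNA had in the globin values was not tested. The adult beta globin genes went with the regulators: Hbb-bt stood at 36.96, 69.8, 23.6, 26.5 and 26.02 CPM in EMP and 3.27, 11.2, 12.9, 8.81 and 4.72 CPM in Myeloid cells, a log2 fold change of -2.37 (SE 0.26).

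Platelet lineage genes fell too, with exceptions. Of 20 megakaryocyte genes, 13 could be tested, of which 8 were lower, all past 2-fold, and Pf4, Thbs1 and Cd9 were higher, with a median of -2.78. With cells thinned to 5000 UMIs, the 8 became 1. Gp5 and Gp1bb, parts of the platelet receptor for von Willebrand factor, fell by 5.05 and 4.16 on the log2 scale. Itga2b, which encodes CD41, an early mark of blood commitment, stood at 38.2, 31.2, 32.9, 53.3 and 47.5 CPM in EMP and 4.64, 4.29, 4.71, 5.71 and 10.3 CPM in Myeloid cells, without overlap. Pf4, a chemokine of platelets that embryonic macrophages also make, was the 1 member higher past 2-fold. It stood at 8.14, 5.28, 8.83, 11.2 and 59.95 CPM in EMP and 121, 131, 51.2, 74.2 and 69.6 CPM in Myeloid cells and rose by 2.53 (edgeR adjusted p 0.001), though EMP cells of WT 5 overlapped the Myeloid range. The summed level of the list did not part the types, at 360 to 588 CPM in EMP and 411 to 470 CPM in Myeloid cells. In aEC it was higher than in both, at 739 to 1036 CPM, so this sum does not mark platelet lineage cells.

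Mast cell genes were a feature of the EMP cells. Cpa3, the mast cell carboxypeptidase, stood at 54.5, 46.4, 141, 80.7 and 55.4 CPM in EMP and 0.68, 1.73, 2.35, 5.46 and 2.27 CPM in Myeloid cells, a change of -4.77 (SE 0.23) on the log2 scale (edgeR adjusted p 4.0e-08). Hdc, the enzyme that makes histamine, and Il1rl1, the receptor for interleukin 33, fell by 3.40 and 2.26. These were the only 3 of the 16 genes of the mast cell and basophil list with counts enough to be tested. At 5000 UMIs a Cpa3 UMI was in 19.2% ± 5.47 of EMP cells and in 0.27% of Myeloid cells.

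Granule genes of the granulocyte branch were split. Mpo, the myeloperoxidase of primary granules, stood at 714, 682, 615, 615 and 488 CPM in EMP and 137, 181, 216, 209.6 and 196 CPM in Myeloid cells. The groups did not overlap and the log2 fold change was -1.75 (SE 0.13) (edgeR adjusted p 8.1e-07). Prtn3, the proteinase stored beside it, stood at 772, 659, 952, 809 and 825 CPM in EMP and 349, 502, 558, 803 and 761 CPM in Myeloid cells. Here WT 4 and WT 5 barely fell, the groups overlapped, and the log2 fold change was -0.48 (SE 0.13). Of the 10 primary granule genes, 8 could be tested. The 4 lower past 2-fold were Prss57, Ms4a3, Mpo and Srgn, the last a proteoglycan that packs granule contents. Elane and Prtn3 were lower by less, Hp and Igsf6 were higher, and the median was -1.28. Cebpe, the C/EBP factor of late granulocyte maturation, fell with them by 2.96.

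Genes of mature neutrophils were mostly too low to test, with 7 of 22 passing the filter on low counts. Of these Csf3r, Stfa1 and Anxa1 were higher, where 32.1% of all genes tested were. None passed 2-fold, and the median was 0.42. S100a8 showed how uneven they were. It stood at 82.7, 15.4, 0, 63.7 and 88.2 CPM in EMP and 199, 183, 0, 0.25 and 19.4 CPM in Myeloid cells, high in Myeloid cells of WT 1 and WT 2 and near 0 in WT 3 and WT 4. Its log2 fold change of -0.06 (SE 1.01) was not called, and its sign changed when WT 4 (1.00) or WT 5 (0.66) was left out. Stfa1, a stefin of neutrophils, was higher by 0.83 (edgeR adjusted p 0.031), and was not called without WT 2 (0.50) or without WT 4 (0.55).

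Most myeloid transcription factors were higher in Myeloid cells. Of 28, 22 could be tested, of which 19 were higher, 13 of them past 2-fold, and 3 were lower, with a median of 1.44. Spi1 stood at 205, 181, 227, 193 and 158 CPM in EMP and 382, 409, 347, 396 and 297 CPM in Myeloid cells, without overlap, a log2 fold change of 0.94 (SE 0.07) that did not pass 2-fold. Irf8, the factor of the monocyte and macrophage branch, stood at 19.1, 32.6, 30.9, 20.4 and 21.9 CPM and 207, 203, 202, 211 and 180.2 CPM, a log2 fold change of 3.04 (SE 0.12) (edgeR adjusted p 7.9e-09). Maf, a factor of differentiated macrophages, was low in EMP cells. It stood at 7.83, 3.22, 2.45, 2.096 and 10.2 CPM in EMP and 454, 412, 257, 355 and 317 CPM in Myeloid cells, without overlap. Batf3 rose by 5.49, Irf5 by 3.72, Klf4 by 2.10 and Cebpb by 1.31. Cebpa, which starts the granulocyte and monocyte programme, was lower in Myeloid cells (-0.89, SE 0.14), as were Cebpe and, slightly, Stat3.

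The macrophage list had the highest median of all lists. Of 24, 21 could be tested, all 21 were higher and 20 were higher past 2-fold, with a median log2 fold change of 4.90. The exception was Apoe, an apolipoprotein of macrophages, which EMP cells also held (253 to 463 CPM) and which rose by 1.36. C1qa, C1qb and C1qc encode the 3 chains of C1q, the complement part that tags dying cells, and they were the 3 largest rises by the naming rule. C1qb stood at 7.203, 5.51, 0.49, 0.87 and 10.2 CPM in EMP and 956, 1058, 558, 705 and 458 CPM in Myeloid cells (log2 fold change 7.41, SE 0.27, edgeR adjusted p 5.7e-09). Csf1r, the receptor these cells need, stood at 14.1, 7.81, 4.42, 3.49 and 12.8 CPM and 215, 219, 163, 162 and 127 CPM, a log2 fold change of 4.47 (SE 0.22). Cx3cr1, the fractalkine receptor of early macrophages, stood at 10.3, 6.89, 9.33, 4.89 and 16.6 CPM and 501, 488, 418, 387 and 400.3 CPM (5.63, SE 0.17). None of these 3 genes overlapped between the types. Mrc1, the mannose receptor, and P2ry12, known from microglia, rose by 8.05 and 6.59 from 9 and 6 counts over all EMP cells. Mertk, a receptor for dying cells, had 3 counts in EMP and 755 in Myeloid cells, a ratio of 100.0 per UMI with an exact 95% counting interval of 34.1 to 486. Such intervals cover counting error only.

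The promoters of C1qb and C1qc are shown as examples from the 3 largest rises by the naming rule. That of C1qa, the largest rise, is not shown, so these windows do not stand for the rises as a group. Both promoters are given as above, with capitals at GAGGAA, the core bound by PU.1 and other ETS factors, on either strand. Neither window held the other 2 motifs. C1qb is at chr4:136886151-136886450 and C1qc at chr4:136892865-136893164, both on the minus strand.
C1qb: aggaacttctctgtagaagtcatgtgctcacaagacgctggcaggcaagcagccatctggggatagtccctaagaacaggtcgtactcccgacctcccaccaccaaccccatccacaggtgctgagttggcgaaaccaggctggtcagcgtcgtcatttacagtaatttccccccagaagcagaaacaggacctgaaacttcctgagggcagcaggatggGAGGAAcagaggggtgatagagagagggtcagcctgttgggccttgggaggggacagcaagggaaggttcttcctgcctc
C1qc: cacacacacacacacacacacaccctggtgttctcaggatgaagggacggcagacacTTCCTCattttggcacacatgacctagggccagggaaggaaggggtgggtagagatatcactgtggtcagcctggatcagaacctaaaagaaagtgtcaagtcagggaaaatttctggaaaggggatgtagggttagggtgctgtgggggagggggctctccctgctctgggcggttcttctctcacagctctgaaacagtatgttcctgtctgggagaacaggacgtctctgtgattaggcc

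GAGGAA was found in 38.6% of the 101 promoters of list members higher past 2-fold, in 27.8% of those of lower list members, in 34.6% of the 780 promoters of all genes higher past 2-fold, in 26.9% of the promoters of all genes tested and in 28.3% of all promoters. TTGCNNAA, a C/EBP motif, was found in 13.9%, 16.7%, 11%, 8.05% and 10.8% of these in turn.

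Monocyte genes rose in 13 of 14 tested of 18, with 10 past 2-fold and a median of 2.26. Ctss, a protease of antigen-presenting cells, stood at 5.01, 4.595, 0.49, 0.17 and 3.39 CPM in EMP and 349.9, 309.5, 248, 229.5 and 119.8 CPM in Myeloid cells, Ly86 rose by 6.47 and Ms4a6c by 5.35. Lyz2, the macrophage lysozyme, stood at 44.2, 36.3, 48.1, 46.5 and 30.2 CPM and 438, 431, 417, 329.6 and 217 CPM (3.14, SE 0.10), so EMP cells held it at a measurable level. Ccr2, the receptor that calls monocytes from marrow in the adult, was low in both types, at 7.52, 1.38, 10.3, 3.67 and 0.75 CPM and 20.4, 14.5, 22.9, 17.8 and 11.4 CPM, and rose by 2.08.

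All 26 lysosome genes could be tested. Of these, 25 were higher, 17 past 2-fold, and 1 was lower, with a median of 1.55. The proteases led: Lgmn rose by 6.48 and Ctsb by 4.00, from 38.5, 25.04, 21.6, 28.5 and 35.8 CPM in EMP to 724, 724, 269, 409 and 302 CPM in Myeloid cells. Psap, the precursor of the saposins that help break down lipids, rose by 3.21, and Tfeb, the factor that switches on lysosome genes, by 2.41. Lamp1, a protein of the lysosomal membrane, rose by 0.86 only. Cd63, a membrane protein of lysosomes and of secretory granules, went against the rest at -0.82 (SE 0.06).

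Receptors of innate sensing followed. Of 25 pattern and Fc receptor signalling genes, 17 could be tested, 15 were higher and 10 were higher past 2-fold, with a median of 1.83. Tlr4, which senses lipopolysaccharide, rose by 4.33, Tlr7, a sensor of RNA, by 4.23, and the inflammasome sensor Nlrp3 by 5.19. The adaptors were already present in EMP cells: Tyrobp stood at 269, 314, 279, 249 and 191 CPM in EMP and 1066, 1248, 960.0, 991 and 753 CPM in Myeloid cells (1.95, SE 0.04), and Fcer1g rose by 1.19. Fcgr2b, the inhibitory Fc receptor, was lower (-1.09, SE 0.20). Of the 7 NADPH oxidase genes, 6 were higher, 3 of them past 2-fold, with a median of 0.92. Cybb, the catalytic subunit, stood at 10.02, 4.37, 3.44, 1.05 and 3.39 CPM and 119, 107, 78.2, 95.5 and 85.2 CPM (4.58, SE 0.24) and Ncf1 rose by 2.41.

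Antigen presentation genes were higher in 11 of 13 tested of 19, with 8 past 2-fold and a median of 1.51. B2m, the light chain of class I, stood at 185, 190.0, 232, 209 and 189 CPM and 509, 503, 565, 520.3 and 393 CPM (1.31, SE 0.06), and Cd86, a costimulatory ligand, rose by 3.19. Cd74, the invariant chain of class II, had 0 counts in EMP cells and 411 in Myeloid cells, so it was at least 54.5-fold higher per UMI over the libraries, with 3 counts taken as the limit that 0 allows. Its Myeloid level was low, at 13.7, 9.54, 2.94, 5.59 and 5.598 CPM.

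Of 24 chemokines and their receptors, 15 could be tested and 13 were higher, all past 2-fold, with a median of 4.76. Ccl3, which draws monocytes, stood at 29.8, 25.96, 71.7, 13.97 and 5.28 CPM in EMP and 230.0, 234, 262, 183 and 77.7 CPM in Myeloid cells. Ccl2 rose by 8.07, from 5 counts in EMP to 3707 in Myeloid cells, with Myeloid values between 15.4 CPM in WT 5 and 225 CPM in WT 3. Ccl12 had 0 and 987 counts and was at least 131-fold higher. C3ar1, a receptor for a complement fragment, and Ccr1 rose by 6.43 and 4.10. Cxcr4 was the exception, low in both and at -0.89 (SE 0.33), which was not called without WT 2 (-0.37, edgeR adjusted p 0.46).

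Most cytokine receptors were higher. Of 28, 26 could be tested, 17 were higher (13 past 2-fold) and 5 lower, where 32.1% and 29.0% of all genes tested were. Of the 5, 3 were past 2-fold, Epor and Kit among them, and 1 with cells thinned to 5000 UMIs. The median was 1.09. Il10ra and Il6ra, which read interleukins 10 and 6, rose by 3.64 and 3.23, and Tgfbr1 and Ifngr1 by 2.98 and 1.65. Csf3r, the receptor for the granulocyte factor G-CSF, rose by 0.49, and Csf2rb, the shared chain of the receptors for interleukin 3 and GM-CSF, was lower (-0.61, SE 0.10). Among 21 integrins and adhesion genes, 20 were tested, 13 higher and 5 lower, with a median of 0.59. The 5 lower lie near the 29.0% of all genes tested. Itgam, a chain of the receptor Mac-1, rose by 2.33, while Itga4, used by progenitors to adhere, was lower (-0.93, SE 0.06).

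Cell cycle genes moved little. Of 24 S phase genes, 19 were lower and none higher, none past 2-fold, with a median of -0.26. Rrm2, which makes nucleotides for replication, stood at 265, 279, 185, 182 and 262 CPM and 164, 166, 146, 155 and 177 CPM. Of 24 G2 and M phase genes, 13 were higher and 1 lower, with a median of 0.15. Mki67 stood at 213, 238, 145, 159 and 150.4 CPM in EMP and 331, 305, 239, 267 and 251 CPM in Myeloid cells (0.63, SE 0.06), without overlap. Ribosome biogenesis genes were lower in 21 of 23 tested of 24, also without any past 2-fold, with a median of -0.59. Myc, which drives them, fell by 1.12, from 106, 106, 123, 88.02 and 93.9 CPM to 51.5, 50.9, 42.9, 41.2 and 46.7 CPM, and Ncl and Npm1, proteins of the nucleolus, by 0.63 and 0.47.

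Of the 12 fetal growth genes, 5 were higher and 4 lower, where 32.1% and 29.0% of all genes tested were, and 2 were lower past 2-fold. These 2 became 1 without WT 1 and 0 without WT 2, without WT 4, with DESeq2 or with no library block. Hmga2, a chromatin protein of fetal stem cells, stood at 219, 211, 289, 244 and 280.1 CPM in EMP and 65.4, 50.3, 92.9, 71.8 and 218 CPM in Myeloid cells (-1.51, SE 0.20), with WT 5 barely lower. Igf1r fell by 1.32, while Lin28b, which holds the fetal programme, was not called (-0.12, SE 0.08). H19, an imprinted RNA, rose by 1.14, and Dlk1 fell by 1.61 but was not called without WT 2 (-1.47, edgeR adjusted p 0.11).

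Genes of other cells that the sort could hold were read in the same sums. The summed level of 18 endothelial genes was 160 to 424 CPM in EMP, 125 to 592 CPM in Myeloid and 6042 to 6871 CPM in aEC. Of the 15 tested, 6 were higher and 1 lower in Myeloid cells, none past 2-fold, where 32.1% and 29.0% of all genes tested were higher and lower. Cdh5, which encodes VE-cadherin, stood at 3.76, 0.46, 2.45, 16.9 and 12.4 CPM in EMP and 17.9, 8.13, 1.18, 13.8 and 46.2 CPM in Myeloid cells, and its log2 fold change of 1.21 (SE 0.41) was called, but was not called at 0.98 without WT 1 or at 0.95 without WT 5. The summed level of 15 lymphoid genes was 61.3 to 74.0 CPM in EMP and 76.3 to 88.9 CPM in Myeloid cells. In aEC it was 80.4 to 108 CPM, with 10 of the 15 genes at 0, so this sum does not mark lymphoid cells. Of the 4 lymphoid genes tested, 2 were higher and 1 lower, too few to set against the shares of all genes. Il7r, the interleukin 7 receptor, rose by 1.93 and Nkg7, a granule protein of cytotoxic cells, fell by 3.54. The genes that define B and T cells (such as Cd3e, Pax5 and Rag1) did not pass the filter on low counts. The part of these cells in the results was not tested.

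The naming rule gave 284 genes called past 2-fold, well expressed and moving the same way in 5 of 5 libraries. Its 10 largest rises were C1qa, C1qb, C1qc, Aif1, Dab2, Ctss, Lgmn, Ly86, Pld4 and C3ar1, from 7.48 down to 6.43. Of these Dab2, an adaptor for uptake from the cell surface, stood at 0.94, 4.595, 1.47, 2.79 and 3.02 CPM in EMP and 439, 436, 171, 233 and 166 CPM in Myeloid cells. Its 10 largest falls were Car2, Gata2, Perp, Spns2, Zfpm1, Hdc, Smim1, Vamp5, Adgrg1 and Myb, from -3.87 (SE 0.24) to -2.70 (SE 0.18). Spns2, an exporter of sphingosine 1-phosphate, stood at 112, 111, 61.8, 94.8 and 78.8 CPM in EMP and 8.29, 7.105, 6.47, 6.83 and 13.3 CPM in Myeloid cells. Adgrg1, the receptor GPR56 of stem and progenitor cells, stood at 126, 132, 146, 155 and 141 CPM and 15.5, 11.01, 18.8, 15.3 and 29.4 CPM.

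Within each type the cells were not uniform. After thinning to 5000 UMIs, cells with at least 3 UMIs of the macrophage list, of the primary granule list, of both or of neither were counted, as a range rather than as cell types. Of Myeloid cells, 48.0% ± 10.2 (SD over 5 libraries) held the macrophage list only, 39.6% ± 8.49 both, 10.0% ± 6.50 the granule list only and 2.37% neither. Macrophage UMIs alone were found in 57.1% and 58.0% of cells in WT 1 and WT 2, and in 33.8% to 48.6% in the other 3 libraries. Cells near the limit, with 2 or 3 UMIs, were 9.55% for the macrophage and 24.3% for the granule list. Of the granule UMIs in Myeloid cells, 48.0% came from Prtn3, 20.4% from Srgn and 13% from Mpo.

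Of EMP cells, 46.6% ± 9.87 held the granule list only, 28.9% ± 7.48 both, 10.6% ± 3.55 the macrophage list only and 13.9% ± 4.35 neither. Apoe made up 78.6% of the macrophage UMIs of EMP cells and 22.8% of those of Myeloid cells. With Apoe left out, a choice made after the data were seen, 85.9% ± 8.46 of Myeloid cells and 3.95% ± 1.51 of EMP cells held 3 macrophage UMIs. In aEC the same share was 6.04% ± 2.55, so that for the list as a whole EMP cells did not exceed aEC. Single genes differed from that. A Csf1r UMI was in 4.50% of EMP cells and 0.16% of aEC, a Cx3cr1 UMI in 3.63% and 0.28%, and a C1qb UMI in 1.92% and 0.49%. For the granule list the shares were 49.6% in Myeloid cells, 75.5% in EMP cells and 0.06% in aEC.

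**Figure D3:**
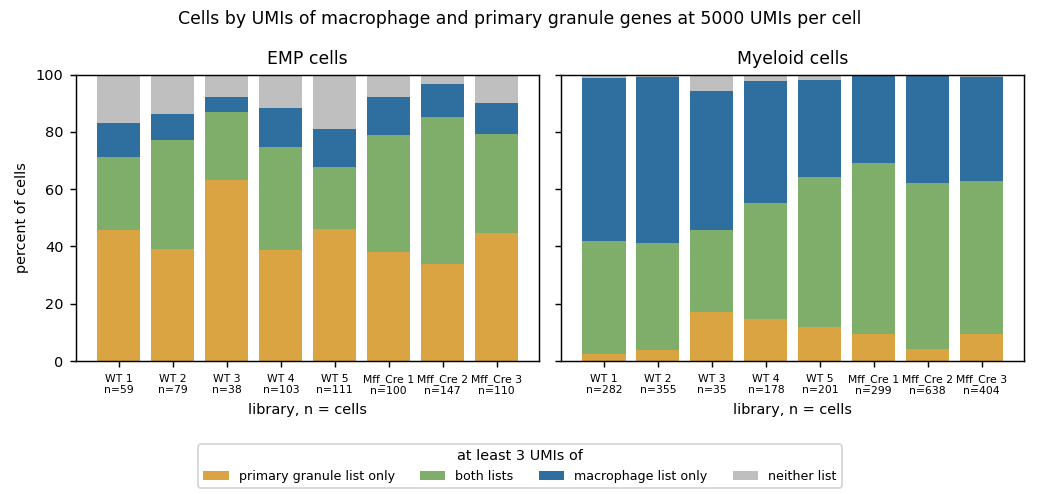
Percent of cells (y axis, from 0 to 100) in each library (x axis, with the number of cells) that held at least 3 UMIs of the primary granule list only, of both lists, of the macrophage list only or of neither, for EMP cells (left) and Myeloid cells (right) thinned to 5000 UMIs. Granule genes without macrophage genes were found in 38.8% to 63.2% of WT EMP cells and in 2.48% to 17.1% of WT Myeloid cells. Most macrophage UMIs of EMP cells were of Apoe.

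Erythroid UMIs were counted in the same thinned cells. At least 3 were found in 50.8%, 50.6%, 26.3%, 53.4% and 56.8% of EMP cells in WT 1 to 5, but also in 35.3%, 40.5%, 16%, 37.3% and 23.8% of aEC, so a large share of the background cells met the limit too. At least 3 UMIs of both erythroid and granule genes were found in 27.1%, 31.6%, 21.1%, 31.1% and 27.9% of EMP cells. EMP cells that met the limit for granule genes only made up 39.6% to 65.8%, and for erythroid genes only 5.26% to 28.8%. In aEC the share with both was 0% to 0.31%, but aEC hold few granule UMIs and give no reference for overlap. Whether both lists met in a cell more or less often than their single shares would give was not tested. By single genes, Gata1 and Prtn3 UMIs were found together in 6.80% to 16.9% of EMP cells, Prtn3 without Gata1 in 49.2% to 71.1%, and Gata1 without Prtn3 in 0% to 15.3%. The 0% in WT 3 was 0 of 38 cells, which allows a share of up to 7.89% of cells with such UMIs, not of cells that express the gene.

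The antibody tags took no part in the clustering and are thus a measure independent of the names. They were counted in 4 WT libraries, since WT 4 held no tag counts. The CD45.2 tag, for the protein of Ptprc on blood cells, averaged 170, 182, 91.8 and 11.2 counts per EMP cell in WT 1, 2, 3 and 5, and 922, 954, 485 and 44.1 counts per Myeloid cell. Myeloid cells were higher in 4 of 4 libraries, by 2.30 ± 0.21 on the log2 scale (SD, n = 4), a ratio of 4.94. Its RNA, Ptprc, rose by 2.17 over the 5 libraries. The CD43 tag, for the sialoglycoprotein of Spn, averaged 584, 656, 320 and 221 counts per EMP cell and 302, 296, 195 and 128 counts per Myeloid cell, a log2 ratio of -0.90 ± 0.19. Spn RNA fell by 1.87.

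The CD117 tag, for KIT, was lower in Myeloid cells by a log2 ratio of -0.55 ± 0.21 and the CD41 tag, for ITGA2B, by -0.74 ± 0.30, again in 4 of 4 libraries. The log2 fold change of their RNAs was -2.53 (SE 0.21) for Kit and -2.83 (SE 0.14) for Itga2b, but tag and RNA differ in background and were not tested against each other. The CD27 tag was higher by 0.55 ± 0.33 in 4 of 4 libraries. It averaged 47.2, 45.7, 15.2 and 2.13 counts per EMP cell and 61.8, 55.8, 21.3 and 4.36 counts per Myeloid cell. In aEC it averaged 23.5, 26.0, 12.6 and 2.41 counts, so that EMP cells of WT 5 lay under the background. Cd27 RNA was low and not called (-0.19, SE 0.27), over 64 and 147 counts. For each of these 5 tags the exact sign-flip permutation test over 4 libraries gives p = 0.125, the smallest it can give. The CD44 tag was counted in WT 5 alone, at 291 counts per EMP and 415 counts per Myeloid cell, and Cd44 RNA rose by 0.36. In the 3 Mff_Cre libraries all 6 tags moved in the same direction as in WT. Their CD27 tag averaged 1.82, 1.29 and 0.68 counts per EMP cell, under the 2.81, 1.37 and 0.94 counts of aEC. Over the 7 libraries of both genotypes the exact sign-flip permutation p was 0.0156 for each of the first 5, again the smallest possible. The CD45.2 log2 ratio in Mff_Cre libraries spread widely, at 0.54, 3.37 and 1.61.

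**Figure D4:**
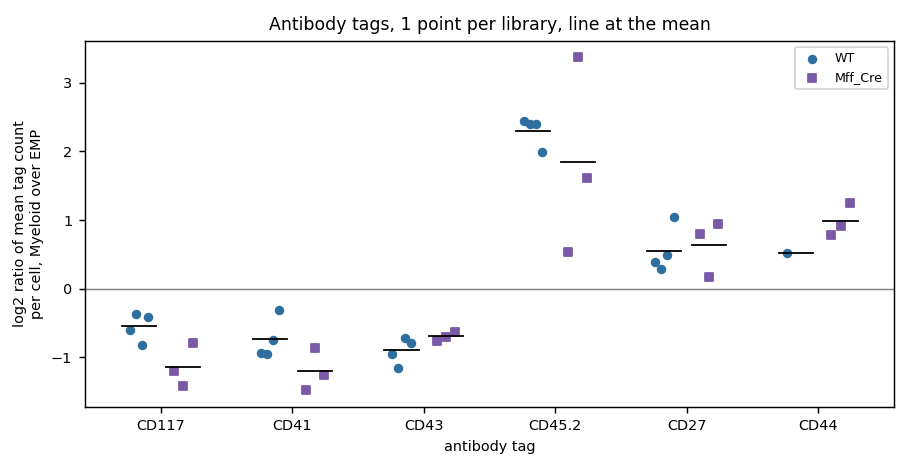
Log2 ratio of mean tag counts per cell, Myeloid over EMP (y axis), for 6 antibody tags (x axis). Circles are WT and squares Mff_Cre libraries, 1 point each, with lines at the means. CD117, CD41 and CD43 lie below 0 and CD45.2, CD27 and CD44 above 0 in every library counted.

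The same comparison was made in the 3 Mff_Cre libraries, with 1345 Myeloid and 357 EMP cells. The names came from the same joint clustering, and these libraries were shallower than WT 1 to 4, with a median of 14516 to 20501 UMIs per EMP cell. Meis1 stood at 20.7, 36.0 and 25.8 CPM in their EMP cells and at 7.81, 13.2 and 10.6 CPM in their Myeloid cells. It was not absent, and the 3′ counts need not read the deleted exon. Of 10400 genes tested, 5009 were called (48.2%) and 900 past 2-fold (8.65%). Of these, 2536 were higher (24.4%) and 2473 lower (23.8%), and past 2-fold 626 were higher (6.02%) and 274 lower (2.63%). Of the 776 genes higher past 2-fold in WT, 749 were tested in Mff_Cre, and 742 of them had the same sign. Past 2-fold in both were 519 higher genes, which is 66.9% of the WT and 82.9% of the Mff_Cre calls, and 169 lower genes, 72.5% and 61.7%. The list medians were 4.70 for macrophage, 1.42 for lysosome, -2.35 for erythroid and -1.90 for megakaryocyte genes.

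Whether the size of a difference depended on genotype was tested by an interaction term. It was called for 96 of 11070 genes (0.867%), 72 of them more negative in Mff_Cre, with 1131 genes at an unadjusted p under 0.05. The granzyme genes Gzmf, Gzmd, Gzmg and Gzmc had the smallest p-values. They were more positive in Mff_Cre, with log2 differences of 17.3, 19.8, 18.3 and 20.4. Their mean levels were only 5.23, 5.18, 5.14 and 4.46 log2 CPM, and differences this large arise where sums hold counts at or near 0. Their size thus depends on the fit and is not a measured fold. The Mff_Cre libraries were shallower than WT 1 to 4, as was WT 5. Medians were 25064 UMIs per Myeloid and 21434 per EMP cell in WT 5, and 22863 and 20501 in Mff_Cre 1. The part of depth was not tested. Of 325 list members compared between the genotypes, 7 were called: Runx1, Cd9, Tyrobp, B2m, Ccr1, Itgb7 and Hba-a1. Of these only Runx1 and Cd9 stayed called with each library left out in turn and with no library block. Runx1 stood at 182, 187 and 210 CPM in EMP and 99.5, 107 and 101 CPM in Myeloid cells of Mff_Cre, a log2 fold change of -0.91 against -0.20 in WT (edgeR adjusted p of the difference 0.0044). Cd9, a tetraspanin, was higher in Myeloid cells of WT (89.9, 103, 95.2, 97.6 and 96.9 CPM in EMP and 124, 124, 188, 172 and 128 CPM in Myeloid cells) and lower in those of Mff_Cre (115, 120 and 119 CPM, and 52.9, 78.5 and 54.7 CPM). The Cd9 log2 fold changes of 0.57 and -0.94 differed with an edgeR adjusted p of 4.5e-04. What part depth or make-up had in the Runx1 and Cd9 differences was not tested. The count of genes called depended on the libraries used: it was 31 without Mff_Cre 1, 38 without Mff_Cre 3, 63 without WT 1 and 134 without WT 5, and 5 with no library block.

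**Figure D5:**
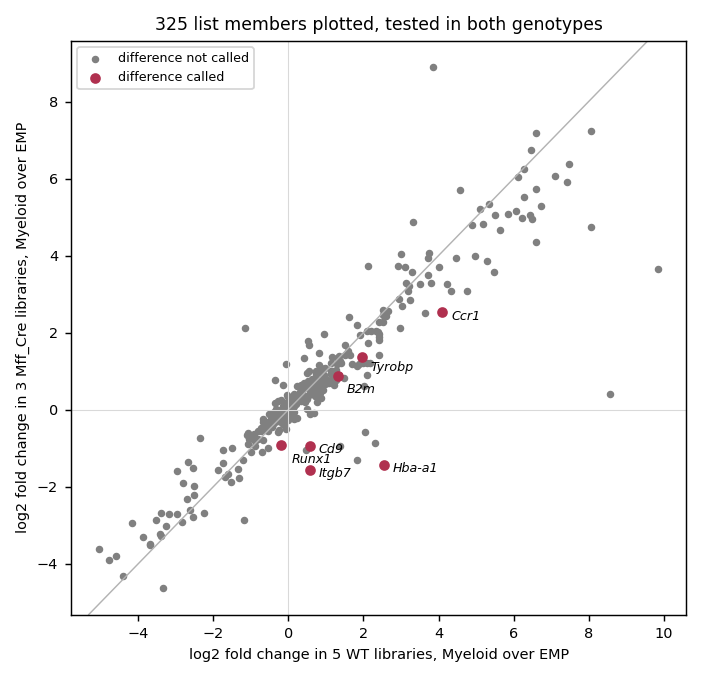
Log2 fold change of Myeloid over EMP in WT (x axis, 5 libraries) and in Mff_Cre (y axis, 3 libraries) for 325 list members tested in both genotypes, with a line where both are equal. Red points mark the 7 genes whose difference between genotypes was called. Of the 325, 32 have opposite signs in the genotypes, among them Cd9, Itgb7 and Hba-a1. The points of Ccl12 and Cd74, far right, depend on the count that the fit adds.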

How the data were processed

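Single cells of 8 CITE-seq libraries were measured, 5 WT and 3 Mff_Cre. The authors aligned and counted reads with Cell Ranger 3.0.2 on mm10, per the submitters' processing notes, kept cells with over 2000 genes and under 10% mitochondrial reads, and deposited raw counts of UMIs per gene and antibody tag counts per cell. The annotation release is not given in the sources used here. They integrated and clustered the RNA of all libraries and named the cell types by hand, and that annotation set every group here. WT 4 held no tag counts, and the CD44 tag was counted in 4 libraries.

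Counts were summed per library and type (1792495 to 15970135 UMIs per Myeloid and 2064999 to 5637244 per EMP sum in WT) and tested with edgeR 4.0.16 (R 4.3.3): TMM, filterByExpr, the quasi-likelihood test with the library as a block, and glmTreat against 2-fold. Fold changes are Myeloid over EMP. The library pairs both types, being 1 pool of embryos: deviations of the pairs correlated at 0.238 to 0.581, each sum best with its own partner. With the block, p-values of the gene tests measure how the difference between the types within a pool varied over pools, not how pools differed in level. DESeq2 1.42.0, other filters, cell minimums, thinning and leaving out each library were alternatives. The naming rule took the 10 largest rises and falls past 2-fold with a mean of at least 5 log2 CPM, at least 10 counts in the lower type and 1 direction in 5 libraries. Cells entered by the annotation alone, but the choice to compare these types and the gene lists was made with earlier results of these data known. A few list genes are counted in their lists but not reported singly here. A doublet caller, Scrublet as built into scanpy 1.11.5, marked cells per library (83 of 15168 cells, 0.547%); these were kept, and left out in an alternative. On simulated counts, 100% of 200 genes changed by 2 on the log2 scale were found in the WT comparison, and 70.5% of those changed by 0.5 (9823 and 9821 genes). Of the calls, 9.09% and 13% were false. The changed genes went up and down in equal number and had over 10 expected counts in the smallest sum. In the data 61.1% of genes were called, so the simulation does not cover such wide change or genes with counts near 0.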

Additional observations from a re-analysis of the deposited data

Results flagged for a closer look

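In 16 of 147 sets of 4 or 5 libraries, 1 library stood apart by Dixon's test, where chance gives about 7.3 (1 in 20). The values are log2 ratios of Myeloid over EMP within the library, with 0.5 CPM added to both. WT 4 stood apart for Hba-x at 4.02 and for Hba-a1 at 4.07, against -0.10 to 0.76 and -1.16 to 0.13 in the others. WT 3, with 35 Myeloid cells, stood apart for Epor at 0.14 (others -3.32 to -2.46), Batf3 at 3.25, Mertk at 2.69, Tyrobp at 1.78, Ccr1 at 4.08 and Myc at -1.51. WT 5, the shallowest, stood apart for Lgmn at 4.56, Tgfbr1 at 1.86, Hmga2 at -0.36, Egfl7 at -0.015, Vamp5 at -2.22 and the CD45.2 tag at 1.98, and its EMP cells had a median of 21434 UMIs, against 47527 to 53132 in the others. WT 2 stood apart for Mki67 at 0.36, against 0.64 to 0.74.

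The log2 fold change differed between the genotypes, Mff_Cre minus WT, for 7 list members, by edgeR's interaction term. The difference was -0.70 for Runx1 (adjusted p 0.0044), -1.50 for Cd9 (adjusted p 0.00045), -0.56 for Tyrobp (adjusted p 0.016) and -0.43 for B2m (adjusted p 0.047). It was -1.55 for Ccr1 (adjusted p 0.017), -2.10 for Itgb7 (adjusted p 0.040) and -4.16 for Hba-a1 (adjusted p 0.081). Runx1 and Cd9 stayed called with each library left out in turn. The call was lost for B2m without WT 1, WT 3 or any 1 Mff_Cre library, for Tyrobp without Mff_Cre 1 or Mff_Cre 3, for Ccr1 without Mff_Cre 1 and for Itgb7 without any 1 Mff_Cre library. Hba-a1 lost it without WT 4 (-0.74), Mff_Cre 1 or Mff_Cre 3, and with DESeq2 (-1.50). With no library block these 5 genes were not called.

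The count table has a row named CreERT2, which no comparison used. It held 34 UMIs in the Mff_Cre libraries, 3 of them in Myeloid and EMP cells, and 0 in the WT libraries.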

How the results depend on the processing

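Of 132 named genes, 128 kept their sign under every alternative that gave them a value, 12 to 15 for each gene. With 1 library left out, Cd34 ranged from -0.051 (without WT 5) to 0.14, Flt3 from -0.021 (without WT 3) to 0.48 and S100a8, at -0.06 in all 5, from -1.31 to 1.00 (without WT 4), with 0.66 without WT 5 and 0.54 with cells thinned to 5000 UMIs. None of these 3 genes was called in the 5 libraries, and the cause was not tested. Under no replicate block, S100a8 turned to 0.74 and Hbb-bh1 to 0.11, the genes called numbered 5039 and past 2-fold 921, and the interaction called 5 genes in place of 96. The fit without the pairing by library also lost 7 calls among the named genes.

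In WT 6271 genes were called and 1009 past 2-fold. With cells thinned to 5000 UMIs, and thus fewer counts, these were 2504 and 387. A Bonferroni adjustment left 1470 called. DESeq2 gave 4718 and 683, and leaving out 1 library gave 5381 to 6327 and 852 to 1092. Genes lower past 2-fold numbered 233, but 373 with no filter on low counts, 150 with DESeq2 and 77 with thinned cells. Thinning also cut the list members higher past 2-fold. They went from 10 to 3 for pattern and Fc receptor signalling genes and from 8 to 3 for antigen presentation genes. For chemokines and receptors they went from 13 to 7, and for myeloid transcription factors from 13 to 8. The interaction called 31 to 134 genes when 1 library was left out.

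The classes of Myeloid cells depended on the UMIs asked for. With at least 2 or at least 5 in place of 3, 33.7% or 59.4% held the macrophage list only, 58.5% or 20.1% both lists and 0.20% or 7.17% neither. Antibody tags and shares of cells with a UMI did not change sign in the alternatives run. WT 3 had few cells in both types, and counts near 0 in EMP cells limit the folds of genes such as Mertk.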
